A study of Homo sapiens with 6 samples.

Results

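Serine synthesis and folate one-carbon enzymes were measured in SN12C, an established human renal carcinoma cell line, with and without knockdown of YAP and TAZ. The group was defined by name as 10 genes, and its probes were those of the non-normalized intensity table whose platform symbol is one of the 10 and whose detection p-value was under 0.05 on at least 3 of the 6 arrays. This gave 11 probes of 8 genes, out of 20348 such probes in all, which stand for 11646 named genes. PHGDH, PSAT1, SHMT2, MTHFD1, MTHFD2 and MTHFD1L had 1 probe each, PSPH had 2 and SHMT1 had 3. MTHFD2L and ALDH1L2 had no probe of this kind in the annotation used, which leaves 4851 of the 20348 probes unnamed, and are not analysed here. A gene without a kept probe is, throughout, one to which the annotation assigns none. Of the 11 probes, 9 were detected on all 6 arrays. The exceptions were a dim PSPH probe, missed on 1 array, and the PHGDH probe, which lay on the limit of the filter with 3 control arrays and 0 knockdown arrays.

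The pathway begins with phosphoglycerate taken from glycolysis. PHGDH oxidises it, PSAT1 adds an amino group from glutamate and PSPH removes the phosphate, which leaves serine. Serine hydroxymethyltransferases then split serine into glycine and a carbon unit bound to tetrahydrofolate. Linked chains of enzymes in the mitochondria and in the cytosol carry that unit between oxidation states and pass it, as formate, from one compartment to the other, for the synthesis of purines, thymidylate and methionine. Several of these genes are known targets of ATF4, the transcription factor of the amino acid response, and the mitochondrial chain is often high in tumours.

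The 3 control arrays came from cells with the pTripz vector and GFP-luc, and the 3 knockdown arrays from cells with pTripz YAPsh, pTripz TAZsh and GFP-luc. All cells received doxycycline, which induces the hairpins, for at least 3 days, were grown in RPMI with glutamine and 10% FBS, and spent the last 24 hours in medium without serum. The series title describes the tumour cells as NF2-deficient, a state that both arms share. The labels do not say whether the lines were clones or pools, or how many hairpins were used per gene. The series calls the 3 arrays of an arm technical repeats, so the p-values measure the spread between arrays and not between cultures.

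Per array, 41.6% to 44.3% of the probes were detected, and the median raw intensity ran from 87.6 to 102.4. YAP1 was lower in the knockdown arm, with log2 values of 8.40 ± 0.12 (SD, n = 3) and 6.89 ± 0.402 (SD, n = 3). TAZ is encoded by WWTR1, for which the annotation names no kept probe, so its knockdown is not checked here. Among kidney and renal carcinoma markers, PAX8, KRT8, KRT18, EPCAM (dim, on 3 arrays per probe) and VIM had a kept probe, and PAX2, CDH16, CA9 and CDH1 had none. Of 7 leukocyte and endothelial markers only CD14 had kept probes, detected on all 6 arrays. The log2 level of its brightest probe was 7.44 ± 0.0866 in control and 8.15 ± 0.164 in knockdown cells (SD, n = 3), and its part in the results was not tested. In these bulk RNA samples a lower level in each cell and fewer cells with the RNA cannot be told apart.

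Arms were compared with limma on background-corrected, quantile-normalized log2 intensities of all 20348 probes, with Benjamini-Hochberg adjustment over all of them and a threshold of 0.05. A change is the knockdown mean minus the control mean on the log2 scale, with its standard error (SE). Of the 11 member probes 10 were lower in knockdown cells and 0 higher, where 16.5% of all probes were lower and 32.3% called in either direction. By the brightest probe of each gene, all 8 genes with a kept probe were lower, against 18.0% of all genes. The members were put together with earlier results of these arrays known, and PHGDH passed the filter only through the arm where it was high, so these counts describe the group and support nothing further. On the log2 scale 10 of the 11 probes had arms that did not overlap, against 45.6% of all probes in either direction (50.9% of genes by their brightest probe) and 22.8% downwards. On raw intensities, before the arrays were brought to a common scale, 5 of the 11 probes had separate arms, all 5 lower in knockdown cells, against 7.38% of all probes downwards and 11.5% in either direction.

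**Figure D1:**
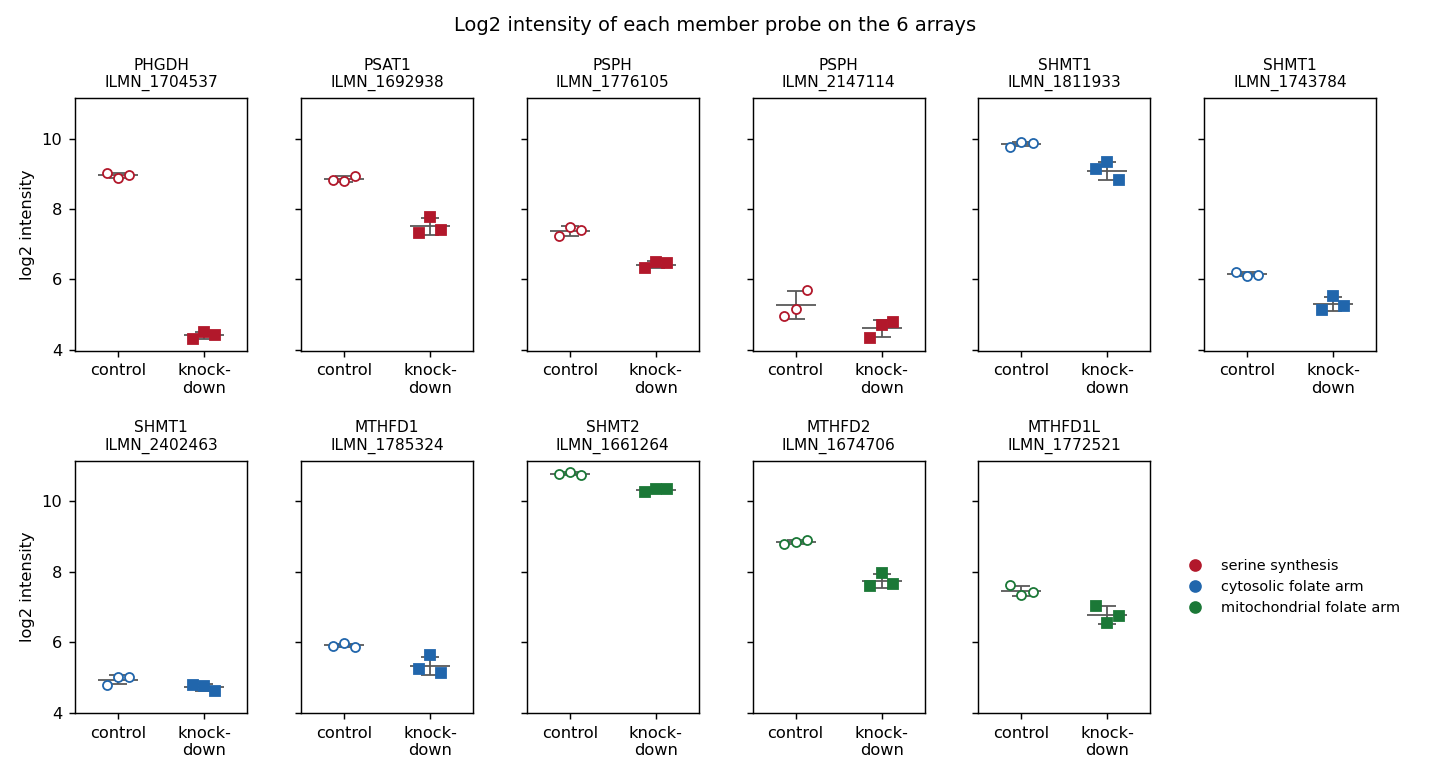
Log2 intensity (vertical axis) of each of the 11 member probes on the 3 control arrays (open circles) and the 3 knockdown arrays (filled squares). Bars show the mean and SD of 3 arrays. The arms are apart for every probe but ILMN_2402463 of SHMT1.

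PHGDH, the first enzyme of serine synthesis, showed the largest change of the group. Before normalization the 3 control arrays gave intensities of 442.4, 775.1 and 508.4, whereas the 3 knockdown arrays gave 94.5, 93.1 and 90.5. The knockdown values lie at the brightness of an undetected probe, and the detection p-values there were 0.345, 0.0675 and 0.125. Normalized log2 values were 9.03, 8.88 and 8.96 with the vector and 4.30, 4.51 and 4.42 with the hairpins. The arms stood thus 4.37 apart at their nearest points. Since no knockdown array measured the probe above background, the fall is a bound. With the main background correction PHGDH was at least 21.5-fold lower, from 8.96 ± 0.0773 to 4.41 ± 0.106 (SD, n = 3). The fitted change was -4.55 ± 0.111 (SE; adjusted p = 1.43e-07 in limma). Its probe passed the filter only through the control arm, so this SE and p-value rest on knockdown values at background. The size of the fall depended on the background correction, and was 5.38-fold without it and 9.62-fold with an offset of 50 in place of 16.

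PSAT1, the aminotransferase that follows, remained detected in both arms. It read 8.82, 8.81 and 8.94 in control and 7.33, 7.78 and 7.42 in knockdown cells, with no overlap. The change was -1.35 ± 0.139 (SE; adjusted p = 0.000199 in limma), which leaves 39.3% of the control level. PSPH, the phosphatase that releases serine, had 2 probes. The brighter one, ILMN_1776105, read 7.23, 7.48 and 7.41 in control and 6.32, 6.48 and 6.46 in knockdown cells, a change of -0.95 ± 0.116 (SE; adjusted p = 0.000481 in limma). The dim probe, ILMN_2147114, moved the same way, by -0.66 ± 0.207 (SE; adjusted p = 0.0395 in limma), with control values of 4.95, 5.16 and 5.71 and knockdown values of 4.34, 4.72 and 4.78. That call held without control array 1 and was lost when any other array was left out. The adjusted p was then 0.0741 (control 2), 0.108 (control 3), 0.104 (knockdown 1), 0.069 (knockdown 2) and 0.0554 (knockdown 3). Over all 18 alternatives the call of this probe held in 8. It was also lost without background correction (-0.18, adjusted p = 0.101) and with an offset of 50 (-0.32, 0.0685). The same held for median scaling (-0.71, 0.099) and for no detection filter (-0.66, 0.118). The human genome holds a PSPH pseudogene, PSPHP1, and whether the probes tell the copies apart was not tested.

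The starts of PHGDH and PSAT1, the genes with the largest falls in the group, are shown as RefSeq gives them in GRCh38.p14, from 250 bases before the transcription start to 50 after it. The PHGDH window is chr1:119711684-119711983 and the PSAT1 window chr9:78296875-78297174, both on the plus strand and written 5′ to 3′. Capitals mark the CCAAT box (CCAAT, on either strand), a common promoter element.
PHGDH: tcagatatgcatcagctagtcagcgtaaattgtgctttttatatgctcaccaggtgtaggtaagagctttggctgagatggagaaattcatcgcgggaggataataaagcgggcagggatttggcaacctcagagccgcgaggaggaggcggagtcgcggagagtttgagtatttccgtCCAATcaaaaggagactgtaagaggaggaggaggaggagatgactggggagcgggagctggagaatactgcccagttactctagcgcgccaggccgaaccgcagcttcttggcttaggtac
PSAT1: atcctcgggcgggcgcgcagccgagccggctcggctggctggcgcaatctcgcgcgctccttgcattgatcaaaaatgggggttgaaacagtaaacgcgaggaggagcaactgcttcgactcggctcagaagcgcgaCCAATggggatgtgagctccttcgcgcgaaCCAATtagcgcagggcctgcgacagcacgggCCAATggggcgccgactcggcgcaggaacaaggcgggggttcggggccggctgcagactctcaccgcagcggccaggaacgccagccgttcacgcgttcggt
PHGDH has 1 such box, 71 bases before the start, and PSAT1 has 3, at 113, 83 and 52 bases before it. The window of PHGDH is the less GC-rich of the pair, with 52.7% against 66% of bases.

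In the cytosolic folate arm both genes were lower. SHMT1, the cytosolic serine hydroxymethyltransferase, had 3 kept probes that differed in brightness and in the size of the change. The brightest, ILMN_1811933, read 9.77, 9.90 and 9.87 in control and 9.13, 9.33 and 8.81 in knockdown cells, a change of -0.76 ± 0.145 (SE; adjusted p = 0.00476 in limma). ILMN_1743784 read 6.21, 6.11 and 6.11 against 5.13, 5.53 and 5.26, a change of -0.84 ± 0.129 (SE; adjusted p = 0.00158 in limma). For both the arms stood apart. The third, ILMN_2402463, lay near background at 4.79, 5.01 and 5.01 against 4.79, 4.75 and 4.60. Its arms overlapped and it did not pass (-0.22, 95% interval -0.49 to 0.05, adjusted p = 0.193 in limma). Which SHMT1 transcripts the probes match was not tested.

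MTHFD1, the cytosolic enzyme that carries out all 3 steps between methylene-tetrahydrofolate and formate, was dim in both arms. It read 5.90, 5.96 and 5.85 in control and 5.23, 5.62 and 5.13 in knockdown cells, a change of -0.58 ± 0.144 (SE; adjusted p = 0.016 in limma). The arms did not overlap, and knockdown array 2 was the nearest to the controls. This call was lost without control array 2 (adjusted p = 0.0552) and without knockdown array 3 (0.059).

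In the mitochondrial folate arm the 3 genes with a kept probe were lower by unequal amounts. SHMT2, the mitochondrial hydroxymethyltransferase, had arrays that agreed closely, with 10.77, 10.83 and 10.75 in control and 10.26, 10.34 and 10.34 in knockdown cells. The change of -0.47 ± 0.101 (SE; adjusted p = 0.00806 in limma) left 72.2% of the control level, and the arms stood apart. MTHFD2, the dehydrogenase and cyclohydrolase of the mitochondrial chain, read 8.79, 8.84 and 8.90 against 7.60, 7.96 and 7.66. It fell 2.15-fold, a change of -1.10 ± 0.127 (SE; adjusted p = 0.000359 in limma), with no overlap. MTHFD1L, the mitochondrial synthetase that releases formate, read 7.62, 7.33 and 7.42 against 7.03, 6.53 and 6.73. Its change was -0.69 ± 0.152 (SE; adjusted p = 0.00897 in limma), and the arms stood 0.30 apart on the log2 scale.

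**Figure D2:**
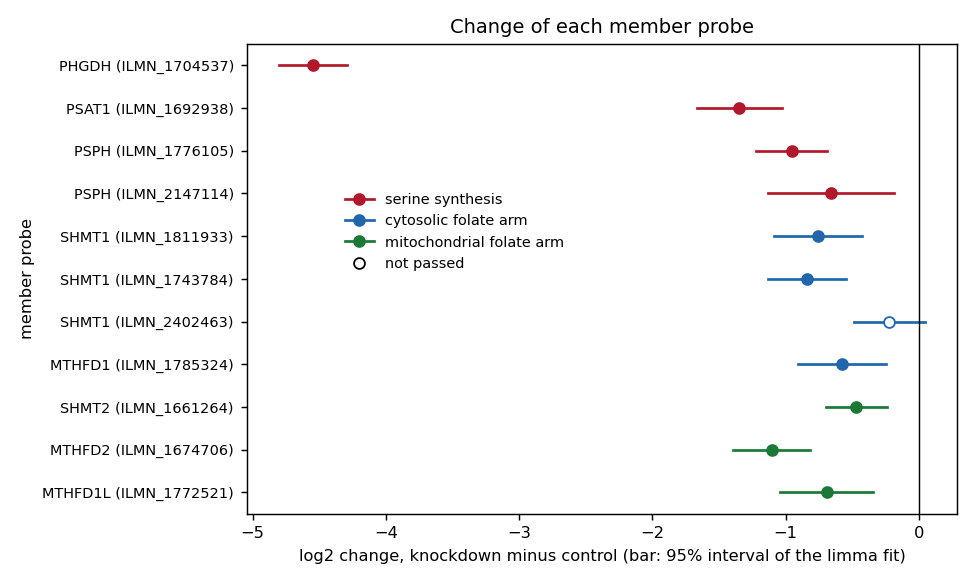
Change of each member probe (horizontal axis, log2, knockdown minus control) with the 95% interval of the limma fit. Filled points passed the threshold. PHGDH lies at -4.55 and the other probes between -1.35 and -0.22.

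The starts of MTHFD2 and MTHFD1L are shown because the first gave the largest change of the mitochondrial arm and the second holds a match to the C/EBP-ATF composite motif, the element that ATF4 is known to bind. The MTHFD2 window is chr2:74198365-74198664 and the MTHFD1L window chr6:150866197-150866496, which is 1 of 4 start sites that RefSeq lists for MTHFD1L, both on the plus strand of GRCh38.p14. Capitals mark matches to any of 5 motifs searched on both strands, which do not overlap here: C/EBP-ATF composite (TGATGNAAT), E-box (CACGTG, bound by MYC), antioxidant response element core (TGACNNNGC, bound by NRF2), TEAD (GGAATG, bound by the TEAD partners of YAP) and the CCAAT box (CCAAT).
MTHFD2: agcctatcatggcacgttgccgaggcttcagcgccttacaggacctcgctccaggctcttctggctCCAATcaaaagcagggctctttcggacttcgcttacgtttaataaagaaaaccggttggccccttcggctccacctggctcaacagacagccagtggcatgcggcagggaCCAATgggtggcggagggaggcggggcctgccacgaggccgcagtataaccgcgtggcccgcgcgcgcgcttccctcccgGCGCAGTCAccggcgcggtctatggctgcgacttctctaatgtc
MTHFD1L: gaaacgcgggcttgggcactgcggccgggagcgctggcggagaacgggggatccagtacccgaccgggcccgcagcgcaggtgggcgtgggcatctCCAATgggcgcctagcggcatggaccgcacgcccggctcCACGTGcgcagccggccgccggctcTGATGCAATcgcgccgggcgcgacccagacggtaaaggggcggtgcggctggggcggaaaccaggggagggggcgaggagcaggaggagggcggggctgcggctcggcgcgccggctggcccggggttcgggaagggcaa
MTHFD1L holds a CCAAT box 154 bases, an E-box 115 bases and a composite motif 90 bases before this start. MTHFD2 holds 2 CCAAT boxes, at 184 and 74 bases before the start, and an antioxidant element core just after it.

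Promoter windows were at hand for 7 of the 10 genes, 6 of them measured, and the motif list was settled after windows had been looked at. SHMT2, PSPH and ALDH1L2 had no entry. A gene was counted where any of its windows held the motif, and so were all 27305 genes of the table. The 7 genes have 11 windows, of 35116 in all. The composite motif was found in 1 of the 7 genes (MTHFD1L, 3 windows), against 1.22% of all genes and 0.991% of all windows. These 3 windows overlap and hold the same site, so it is a single match. By the start site used, it lies 129 or 90 bases before the start or 24 bases after it. The E-box was found in 2 (MTHFD1L and MTHFD1), against 8.77% of genes and 7.26% of windows. The antioxidant core was found in 2 (MTHFD2 and MTHFD2L), against 16.1% of genes and 13.3% of windows, and the TEAD motif in 0, against 16.7% and 14%. A CCAAT box was found in 6, all but MTHFD2L, against 39.7% of genes and 34.6% of windows. A match is a description of the letters in the window and not a site shown to be bound.

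The 2 compartments were set against each other through enzymes of the same reaction, as the difference of their log2 values within each array. SHMT2 minus SHMT1 was 1.00, 0.93 and 0.89 in control and 1.13, 1.01 and 1.53 in knockdown cells. The difference was thus higher by 0.29 in knockdown cells, so by the brightest probes SHMT2 fell less than SHMT1. The two-sided exact permutation test gave p = 0.1, the smallest that 3 arrays against 3 allow, and an adjusted p of 0.2 over the 2 pairs. The direction depends on the SHMT1 probe. ILMN_1743784 changed by -0.84 and ILMN_2402463, near background, by -0.22, against -0.47 for SHMT2. MTHFD1L minus MTHFD1 was 1.72, 1.36 and 1.56 in control and 1.80, 0.91 and 1.60 in knockdown cells, a shift of -0.12 with overlapping arms (exact p = 0.9, adjusted p = 0.9). Its sign turned without knockdown array 2, where the shift was 0.15. The planned difference of MTHFD2 and MTHFD2L, both mitochondrial, could not be taken without a probe for MTHFD2L. No test here tells the size of the fall in one compartment from that in the other.

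Among the 10 probes whose arms stood apart, 9 read above their arm's mean on knockdown array 2, by a median of 0.16 over the 10, and MTHFD1L read below it. On knockdown array 1, 2 of the 10 were above the mean, and on knockdown array 3, 4 of the 10. On control arrays 1, 2 and 3 the counts were 3, 4 and 6 of the 10. The share of all probes above their arm's mean was not taken. Quantile normalization removes a uniform shift of an array, but whether many other probes moved as these did was not tested. YAP1 itself read 7.33, 6.76 and 6.56 on knockdown arrays 1, 2 and 3, and a link to the members by array was not tested.

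**Figure D3:**
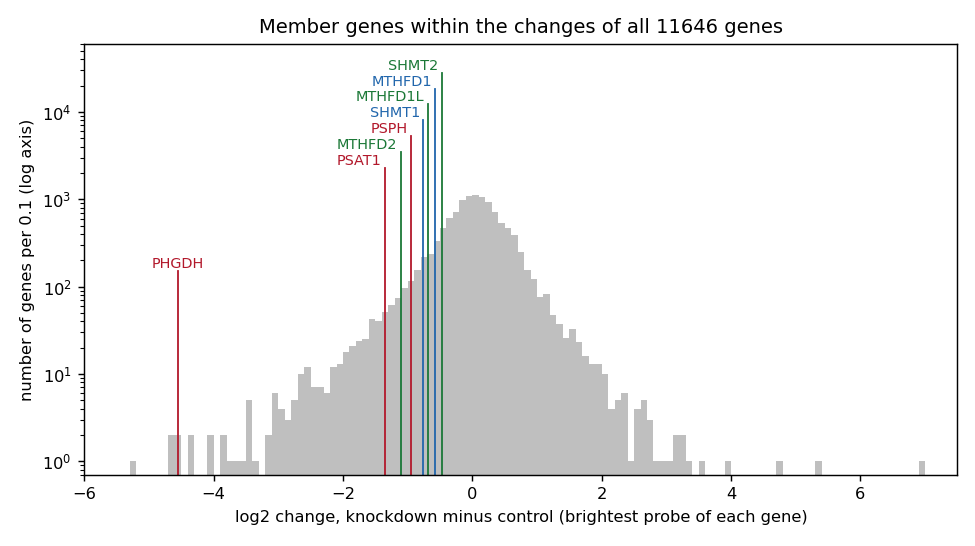
Histogram of the log2 change (horizontal axis, knockdown minus control) of all 11646 genes by their brightest probe, with the number of genes on a log axis and the 8 measured members marked by coloured lines. PHGDH lies in the far left tail and SHMT2, at -0.47, on the shoulder of the distribution.

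Over all genes the median change was 0.03, and 36.9% were called, 18.0% lower and 18.9% higher. Genes around the members were read from 6 lists with 58 genes, of which 43 had a kept probe. Of these, 14 were lower, 7 higher and 22 did not pass, with a median of -0.10. Among the 43, 3 met the probe filter through 1 arm only. They were SLC1A4 and BHMT2, both counted as lower, and FTCD, which was not called. Of 9 measured serine and glycine transporters, 2 were lower, 1 higher and 6 did not pass (median 0.00). SLC38A2, a neutral amino acid transporter of the plasma membrane, was higher by 0.45 ± 0.106 (SE; adjusted p = 0.0118 in limma), and this call was lost without control array 3 (0.0562). It was also lost with median scaling, over probes detected on all 6 arrays (0.0718) and over all probes (0.4998). SLC1A5, which carries glutamine and serine, was lower (-0.35, adjusted p = 0.0297), a call that 4 of the 6 omissions of an array ended: control 2 (0.0726), control 3 (0.111), knockdown 2 (0.0851) and knockdown 3 (0.0925). The same 2 median scalings ended it as well (0.0797 and 0.593). SLC1A4, a serine and alanine transporter, was at least 1.22-fold lower. It was undetected in knockdown cells, so its probe passed the filter only through the control arm. That bound rests on the background correction, without which the change was -0.11 and did not pass (adjusted p = 0.0989), nor did it with an offset of 50 (-0.18, 0.0904). Its call was lost without any 1 array other than control array 3, with adjusted p-values of 0.0597 to 0.0814, and with the 2 median scalings (0.189 and 0.319). SFXN1, the mitochondrial serine carrier, changed by -0.05 and did not pass.

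Of 4 measured genes of folate uptake and storage, GGH, the hydrolase that trims folate polyglutamates, was lower (-0.77 ± 0.159 (SE), adjusted p = 0.00665 in limma), and 3 did not pass. Among them were the reduced folate carrier SLC19A1 (0.01) and FPGS, which adds the glutamates (-0.21). Of 7 measured folate users and recyclers 2 were lower, 0 higher and 5 did not pass, where 18.0% of all genes were lower and 18.9% higher. TYMS, thymidylate synthase, fell by 1.22 on the log2 scale (adjusted p = 0.00613) and GART, which uses formyl-folate in purine synthesis, by 0.62 (adjusted p = 0.00324). ATIC, the other formyl-using enzyme of that route, changed by -0.18 and did not pass. ALDH1L1, SARDH and DMGDH had no kept probe.

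The 4 genes of the glycine cleavage system, a mitochondrial complex that breaks glycine down and feeds carbon into the folate pool, did not move together. GLDC, the decarboxylase, read 6.77 ± 0.257 in control and 5.67 ± 0.268 in knockdown cells (SD, n = 3), a change of -1.10 (adjusted p = 0.00197 in limma). GCSH, the lipoyl carrier protein, was lower by 0.57 (adjusted p = 0.00485). AMT, the aminomethyltransferase, was higher by 1.01 ± 0.128 (SE; adjusted p = 0.000589), from 7.37 ± 0.182 to 8.38 ± 0.0951 (SD, n = 3). DLD, shared with other dehydrogenase complexes, changed by -0.10 and did not pass.

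Of 11 measured genes that use serine or glycine, 4 were lower, 3 higher and 4 did not pass, where 18.0% of all genes were lower and 18.9% higher. CBS and CTH, the pair of enzymes that move sulfur from homocysteine to cysteine on a serine backbone, were lower by 1.11 (adjusted p = 0.000372) and 0.86 (adjusted p = 0.00122). A second CTH probe moved by -0.39 and did not pass. SPTLC2, a subunit of the enzyme that opens sphingolipid synthesis, was lower by 0.81 (adjusted p = 0.00395). GCLM, the modifier subunit of glutamate-cysteine ligase, was lower by 0.92 by its brightest probe (adjusted p = 0.00617), and its other probe changed by 0.03. The 3 higher genes were PTDSS1 (0.51) and PTDSS2 (0.43), which place serine on phospholipids, and GCLC (0.36), the catalytic subunit of the ligase, named here after their values were seen. PTDSS1 kept its call without any 1 array, while PTDSS2 and GCLC lost theirs without any 1 array other than control array 1, with adjusted p-values that reached 0.151 and 0.117.

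In the methionine cycle, which takes its methyl group from folate, 3 of 8 measured genes were lower, 2 higher and 3 did not pass. The shares over all genes were 18.0% lower and 18.9% higher. MTRR and MAT2B did not pass by their brightest probes, but a dimmer probe of each did. That of MTRR was lower (-0.47, adjusted p = 0.0141 in limma) and that of MAT2B higher (0.37, 0.0412). AHCY, which hydrolyses S-adenosylhomocysteine, was lower by 0.60 (adjusted p = 0.00358 in limma). BHMT2, a methyltransferase for homocysteine, was at least 1.24-fold lower. It was undetected in knockdown cells, so its probe passed the filter only through the control arm. Without background correction the change was -0.13 (adjusted p = 0.0806) and with an offset of 50 it was -0.21 (0.077), and neither passed. Its call was lost without any 1 array other than control array 3, with adjusted p-values that reached 0.104. AHCYL2, a relative of AHCY, was higher by 0.66 (adjusted p = 0.00282) and MAT2A, which makes S-adenosylmethionine, by 0.54 (adjusted p = 0.00621). MTR, methionine synthase, was the third lower gene, named after its value was seen (-0.40, adjusted p = 0.032), and lost its call without control array 1 or 3 or knockdown array 1 or 2, with adjusted p-values that reached 0.122. The same 2 median scalings also ended it (0.0698 and 0.459).

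**Figure D4:**
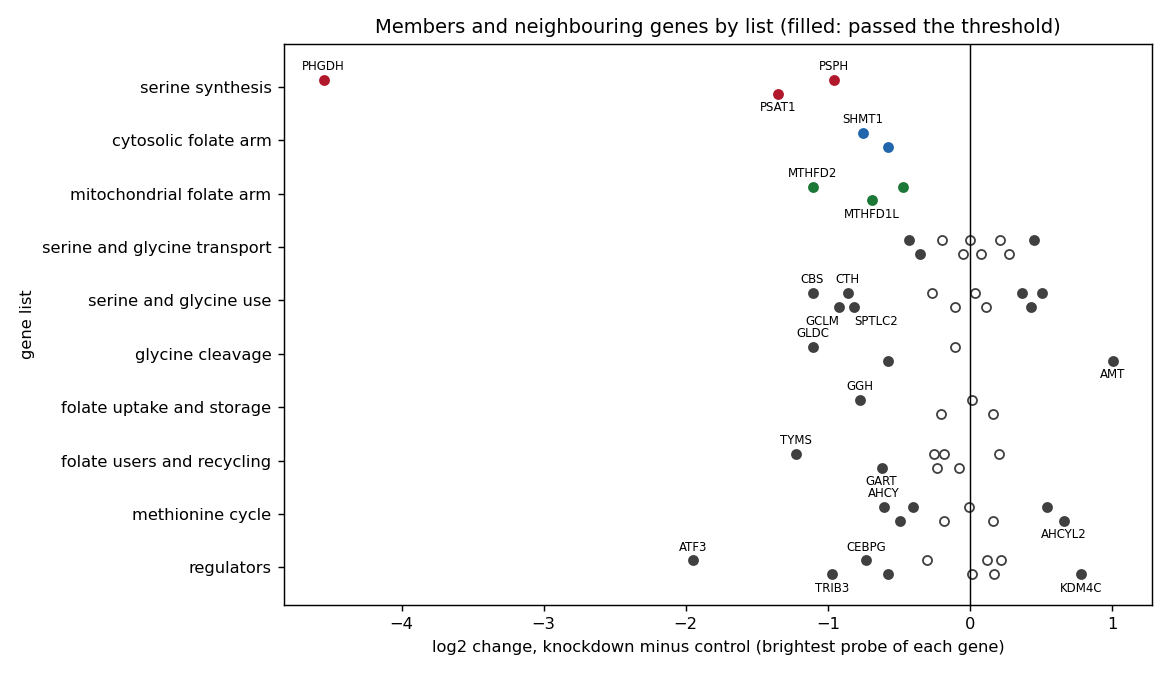
Log2 change (horizontal axis, knockdown minus control) of the brightest probe of each measured gene, by list (vertical axis). Filled points passed the threshold. The members lie to the left of 0, while 7 of the 43 neighbouring genes were higher and 14 lower, against 18.9% and 18.0% of all genes.

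Regulators known to act on the group were read from a list of 10, of which 4 were lower, 1 higher and 5 did not pass. Over all genes 18.0% were lower and 18.9% higher. By the brightest of 3 probes, none of which passed, ATF4 RNA read 11.50 ± 0.0824 in control and 11.20 ± 0.0755 in knockdown cells (SD, n = 3). Its change of -0.30 did not pass (adjusted p = 0.0646 in limma), though the arms did not overlap. It passed in 5 of 19 alternatives. These were the replicate number as a block (0.0465), no background correction (0.0112), an offset of 50 (0.0192), no detection filter (0.0377) and an intensity trend with robust prior (0.0185). In the others ATF4 did not pass, with adjusted p-values up to 0.401. Among them was every omission of 1 array (0.0739 to 0.214). ATF4 is known to be controlled mainly at translation, which RNA arrays do not measure. ATF3 (-1.95, adjusted p = 8.47e-06), TRIB3 (-0.97, 9e-04), CEBPG (-0.73, 0.00152) and CEBPB (-0.57, 0.00497), all known to respond to ATF4 or to pair with it, were lower, whereas DDIT3 changed by 0.17 and did not pass. MYC (0.12), NFE2L2 (0.22), which encodes NRF2, and EHMT2 (0.01), a histone methyltransferase, did not pass. NFE2L2 passed in 1 of 19 alternatives, without background correction (adjusted p = 0.0296 in limma). KDM4C, a histone demethylase, rose at least 1.58-fold from an arm in which no array detected it (adjusted p = 0.000982). Its probe passed the filter only through the arm where it was high, and the bound rests on the background correction, since the change was 0.21 without it.

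The genes most like PHGDH were those whose log2 values, centred on their own mean, lay nearest to it over the 6 arrays by Euclidean distance, among 11645 genes. They were MIF (distance 0.282), CPA4 (0.296), EVA1A (0.361), PXDN (0.483) and SERPINE2 (0.588), with changes of -4.67 to -4.37. With 2 groups of 3 arrays this distance mostly follows the size of the difference between the arms. The nearest to SHMT2 were FAM216A (0.048), RPL26L1 (0.0591), NDUFA12 (0.061), PPP2R5C (0.0774) and MCUB (0.098), with changes of -0.49 to -0.42. No other member was among the 5 nearest genes of PHGDH or of SHMT2. For PHGDH, whose knockdown values lay at background, the size of its fall fixed this, since PSAT1 came next among the members at -1.35.

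**Figure D5:**
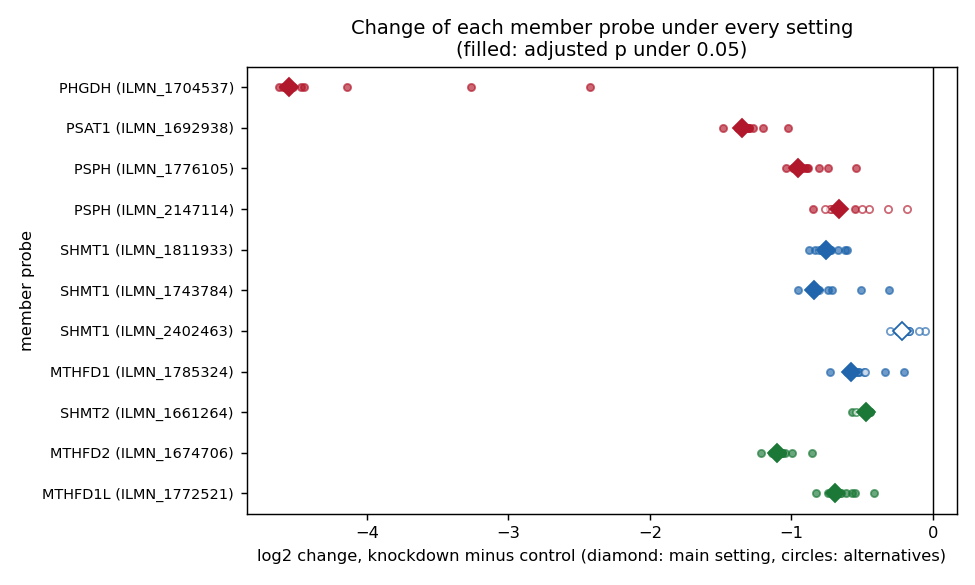
Log2 change of each member probe (horizontal axis, knockdown minus control) in the main setting (diamonds) and in 18 or 19 alternatives (circles). Filled symbols have an adjusted p under 0.05. Every symbol lies to the left of 0, and PHGDH spreads most, from -4.62 to -2.43.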

How the data were processed

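Total RNA of 6 samples of 1 cell line was measured on Illumina bead arrays after conversion into biotin-labelled cRNA, per the labels' protocols. The authors deposited a table of average probe intensity without normalization, with a detection p-value per probe and array, per the file headers, and a table of log2 values. The submitters' processing notes name limma, and neither a genome build nor scanner software is given there. Of 48202 lines, 887 carried no probe identifier. They took part in the background correction and normalization and were then dropped, which left 47315 probes. The function neqc (limma 3.58.1, R 4.3.3) estimated the background from the detection p-values by normexp, added an offset of 16, and applied quantile normalization and log2. The deposited log2 table holds exactly the 20348 kept probes, and its values differed from these by at most 7.37e-05, so its scale is log2, uncentred (column medians of 6.257 to 6.262).

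Symbols came from the platform annotation, which gave 1 symbol to 15493 of the kept probes, several to 4, and did not list 4851. Through Entrez identifiers 15484 matched the current gene table, and 0 symbols changed. A gene was read from its brightest kept probe. The fit (lmFit and eBayes, two-sided, group as the only term) covered all kept probes and was run on simulated data. The simulated noise was independent and far fewer probes changed than were called here. That run therefore does not show how the fit behaves on these arrays. The members, lists and tests were chosen with earlier results of these data known. Named were all members, YAP1, WWTR1, 10 regulators, up to 4 called genes with the largest change per list, and the 5 genes most like PHGDH and SHMT2. Others named were chosen after their values were seen, and some genes of the lists are not reported here. A probe undetected on the 3 arrays of an arm gives a bound, from the higher of its own value and the lowest detected value on each such array.

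Arrays are numbered 1 to 3 in both arms by the labels. Deviations from the arm mean correlated at 0.629, 0.252 and 0.464 between same-numbered arrays, all above the limit of 0.1 for taking them as pairs, although knockdown array 2 correlated more with control array 3 (0.377). The fit without the block is the main one. The number of arrays limits the precision.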

Additional observations from a re-analysis of the deposited data

How the results depend on the processing

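Under 18 or 19 alternatives, all 206 values of the 11 member probes stayed lower in knockdown cells, and 188 stayed on their side of the threshold. The other probe filters, the trend with robust prior and the replicate block reuse the main log2 values. The deposited table repeats these values, so in all these settings the direction could not change. PHGDH, PSAT1 and MTHFD2 passed in all 19, PHGDH with a probe that no knockdown array detected. All 8 genes stayed called except in 3 settings: 7 without control array 2, 7 without knockdown array 3, and 3 with median scaling over all probes, a setting added after the data were seen. That scaling called 3 of 11 member probes, 1520 of all probes against 6576, and 2 of 43 pathway list genes against 21. Most of the probes it scales by were not detected. With the planned median scaling over probes detected on all 6 arrays, 8 genes, 9 probes, 4764 probes and 14 pathway list genes were called, and 44.5% of the calls were in the higher direction against 48.9%.

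When no background was removed, PHGDH was 5.38-fold lower, and the other genes lay between 2.03-fold (PSAT1) and 1.15-fold lower (MTHFD1) by their brightest probes. With the replicate number as a block 8 genes and 10 probes were called, as without it, and of the named genes it changed only the call of ATF4 (adjusted p = 0.0465). The blocked sign-flip test of SHMT2 minus SHMT1 gave 0.25, the smallest it allows, at a difference of 0.29. Leaving out 1 array gave 0.14 to 0.40 for SHMT2 minus SHMT1 and -0.31 to 0.15 for MTHFD1L minus MTHFD1, 8 to 10 member probes, 15 to 18 pathway list genes and 4645 to 5939 probes. The probe filter was kept as for 6 arrays there. Signal over background limits PHGDH, SLC1A4, BHMT2 and KDM4C to bounds, and dim probes such as that of MTHFD1 to changes that shrink without background correction.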
